A study of Mus musculus with 24 samples.

Results

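Smpx, a gene of chromosome X that encodes the small muscle protein, X-linked, was followed through every library of a study of the mouse cochlea without the growth factor Fgf20. It is 1 of the 53946 genes of the count table (ENSMUSG00000041476) and was chosen because it was higher in mutant than in control TRAP libraries, so that contrast is given below as a description, without a test. RNA came from ventral otocysts, the part of the embryonic inner ear that holds the cochlea, dissected at embryonic day 14.5 from mice of strain C57BL/6J x 129X1/SvJ. In translating ribosome affinity purification (TRAP), a ribosomal protein fused to a green fluorescent protein, L10a-eGFP, is made in chosen cells, here the Fgf20-Cre lineage, and its ribosomes are pulled down with their mRNA by antibodies to the fluorescent tag. The groups were TRAP RNA of Fgf20+/- (het, 8 libraries) and Fgf20-/- (mut, 8 libraries) embryos, and pre-TRAP RNA of the same genotypes (4 libraries each), in 2 experiments that the labels give as the batch. Controls were heterozygous, so every group had lost at least 1 Fgf20 allele, and 3 to 7 embryos that shared a genotype were pooled for each library. The sexes of the pooled embryos, which bear on an X-linked gene, are not given in the labels, which also give pre-TRAP libraries the same extraction text as TRAP libraries. Nothing in the labels says how the libraries of a group were obtained beyond the pools, so p-values measure the spread between these libraries.

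Smpx protein is small and is best known from heart and skeletal muscle, where it sits at costameres, the complexes that tie the sarcomere to the cell membrane. In people, mutations of SMPX cause a progressive X-linked hearing loss, and in the ear the protein has been placed in sensory hair cells and their neighbours. Fgf20 is a secreted ligand of the prosensory domain, the strip of cochlear epithelium that gives rise to hair cells and supporting cells.

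The 250 bases before the annotated start of Smpx are shown since they lie just upstream of the site where its transcription is annotated to begin. They lie on the + strand at chrX:157698723-157698972 of GRCm38.p6 in the RefSeq promoter table, and capitals mark the GATA motif AGATAA.
Smpx: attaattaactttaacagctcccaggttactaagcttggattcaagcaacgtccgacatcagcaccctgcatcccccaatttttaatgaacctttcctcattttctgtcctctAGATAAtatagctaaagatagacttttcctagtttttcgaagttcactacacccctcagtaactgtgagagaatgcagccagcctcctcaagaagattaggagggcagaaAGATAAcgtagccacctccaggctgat
AGATAA occurred 2 times, both on the + strand, with its first base 137 and 27 bases before the start, and 9.99% of the 32851 windows of the same length in the table held it on either strand. Of the other 5 motifs searched on both strands, none was found in this window. They were the E-box CANNTG (in 66.2% of windows), the TATA box TATAAA (12.4%), the ETS core CCGGAA (12%), the MEF2 motif (2.92%) and the CArG box (1.47%). Such matches describe letters, not bound sites. The count files use GRCm38.p5, a different patch of the build, and no other coordinates are used.

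Total counts were 3.07e+07 to 5.34e+07 per library. As a check of the labels, the targeted gene Fgf20 lay between 3.11 and 5.92 CPM (counts scaled to the same library total, with TMM factors) in TRAP het and between 0.825 and 3.01 CPM in TRAP mut. Which part of Fgf20 the mutant allele lacks is not given in the sources used here, so counts that remained in mut libraries could not be placed. The 68 pairs of libraries within groups differed by more than counting error.

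Smpx was present in all 24 libraries, at a low level in pre-TRAP RNA and at a moderate level in TRAP RNA. Its counts ran from 466 to 1027 in TRAP het, from 917 to 1978 in TRAP mut, from 46 to 140 in pre-TRAP het and from 100 to 215 in pre-TRAP mut. The lowest count, 46 in pre-TRAP het library 17, has an exact Poisson 95% interval of 33.7 to 61.4, which covers counting error only.

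In TRAP RNA of experiment 1, the 4 het libraries held 13.4, 15.7, 23.9 and 30.6 CPM of Smpx, and the 4 mut libraries held 41.8, 42.3, 49.4 and 57.7 CPM. In experiment 2, the 4 het libraries held 12.0, 14.0, 16.8 and 17.7 CPM, and the 4 mut libraries held 26.2, 26.5, 31.2 and 36.5 CPM. Within each experiment, every mut library was above every het library. Pooled over experiments the groups overlapped, because het library 5 of experiment 1, at 30.6 CPM, exceeded 2 mut libraries of experiment 2.

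The 8 TRAP het libraries averaged 18.0 ± 6.24 CPM (SD) and the 8 TRAP mut libraries 38.9 ± 11.1 CPM (SD), a ratio of 2.16. The fitted log2 difference was 1.08 ± 0.15 (SE) with experiment as a covariate, 1.21 ± 0.24 in experiment 1 and 0.99 ± 0.18 in experiment 2. These are the values from which Smpx was chosen. For scale, 0.0742% of the 21577 genes tested in this contrast were called at an adjusted p under 0.05 by edgeR's quasi-likelihood test with Benjamini-Hochberg adjustment, 0.0185% higher in mut and 0.0556% lower. These shares are over the whole table, Smpx included, and nothing is read from them about Smpx. A complete separation within both experiments with mut higher, counted after the library values had been seen, was found for 0.0695% of genes.

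In pre-TRAP RNA, which the choice of Smpx did not use, the 2 het libraries of experiment 1 held 2.21 and 3.34 CPM, and the 2 mut libraries held 4.21 and 4.44 CPM. In experiment 2, the 2 het libraries held 1.30 and 1.92 CPM, and the 2 mut libraries held 2.77 and 4.09 CPM. Mut libraries were again above het libraries within each experiment, as were those of 1.76% of genes. The labels do not say whether pre-TRAP libraries share embryo pools with TRAP libraries, so the 2 kinds of RNA may not be independent. Pooled, the groups overlapped, with het library 21 at 3.34 CPM above mut library 18 at 2.77 CPM.

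**Figure D1:**
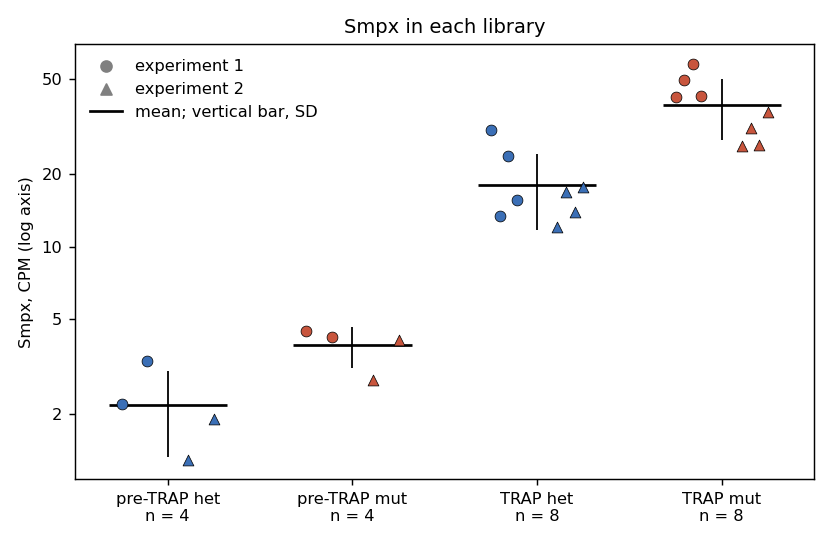
Smpx level in CPM (log axis) in each of the 24 libraries by group, with circles for experiment 1, triangles for experiment 2, horizontal lines for group means and vertical bars for the SD. TRAP libraries lie between 12.0 and 57.7 CPM and pre-TRAP libraries between 1.30 and 4.44 CPM, with mut above het within each experiment.

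The 4 pre-TRAP het libraries averaged 2.19 ± 0.856 CPM (SD) and the 4 pre-TRAP mut libraries 3.88 ± 0.751 CPM (SD), a ratio of 1.77. The log2 difference of 0.86 ± 0.24 (SE) did not pass the threshold over all genes (edgeR, adjusted p = 0.837, unadjusted p = 0.00329). Here 0.00455% of 21954 genes were called, which is 1 gene, Tectb (a tectorial membrane protein), while 1048 had an unadjusted p under 0.05. An exact two-sided permutation test of log2(CPM + 0.5) over the 4 against 4 libraries gave p = 0.0571. When the exact permutation was kept within experiments p was 0.0556, the smallest this design allows. The difference in TRAP exceeded that in pre-TRAP by 0.24 ± 0.28 (SE) on the log2 scale, less than its error, and is given without a test because it contains the contrast used for the choice.

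Among all genes but Smpx, 3 were called higher in mut TRAP RNA, and each is given with its pre-TRAP value. Calb1, which encodes the calcium-binding protein calbindin, had a mean of 83.6 ± 13.2 CPM in TRAP het and 159 ± 45.1 CPM in TRAP mut (SD, n = 8 each). Its log2 difference was 0.89 ± 0.15 in TRAP (SE, edgeR adjusted p = 0.0182) and 0.98 ± 0.19 in pre-TRAP (SE, edgeR adjusted p = 0.837). Epyc, which encodes the matrix proteoglycan epiphycan, averaged 41.0 ± 20.0 CPM in TRAP het and 96.8 ± 42.3 CPM in TRAP mut (SD, n = 8 each). Its difference was 1.21 ± 0.19 in TRAP (SE, edgeR adjusted p = 0.0126) and 0.04 ± 0.17 in pre-TRAP (SE, edgeR adjusted p = 0.968). Fgf13, which is also on chromosome X and encodes an FGF protein that stays inside the cell, differed by 0.59 ± 0.11 in TRAP (SE, edgeR adjusted p = 0.0353) and by 0.24 ± 0.15 in pre-TRAP (SE, edgeR adjusted p = 0.837). Just outside the threshold was Fam184b, at 0.80 in TRAP. Side by side, the pre-TRAP values of Smpx and Calb1 were near their TRAP values, and that of Epyc was near 0.

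**Figure D2:**
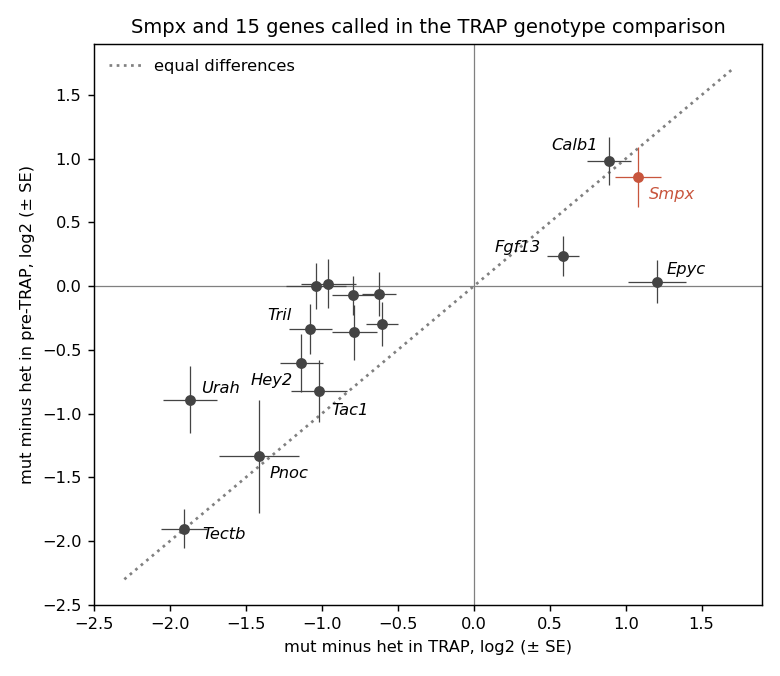
Log2 difference of mut minus het in TRAP (x axis) and in pre-TRAP RNA (y axis), with SE bars, for Smpx (red, chosen from its TRAP value and plotted without a test) and the 15 other genes called in TRAP, with a dotted line of equal differences. Smpx (1.08 and 0.86) and Calb1 (0.89 and 0.98) lie near the line, and Epyc (1.21 and 0.04) lies near 0 in pre-TRAP.

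Smpx was far more abundant in TRAP than in pre-TRAP RNA, by 8.21-fold in het and 10.0-fold in mut. With genotypes weighted equally the log2 difference was 3.18 ± 0.16 (SE, edgeR adjusted p = 4.59e-15). In this contrast 59.1% of 24242 genes were called and 27.9% were called higher in TRAP, and 0.441% of genes had a larger log2 difference than Smpx. The lowest TRAP library, at 12.0 CPM, was above the highest pre-TRAP library, at 4.44 CPM. The TRAP libraries hold RNA pulled down from the tagged lineage, and the pre-TRAP libraries are compared with them as shares of counts. In either bulk RNA, a difference in the number of cells of a type and one in RNA per cell cannot be told apart.

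Marker lists place that value. Of 15 neuronal markers tested, 14 were higher in TRAP and none lower, with a median log2 difference of 2.62, against -0.01 over all genes. Of 29 hair cell markers tested, 23 were higher and 1 lower, with a median of 1.86, where 27.9% of all genes were higher and 31.2% lower. Among them Atoh1, the transcription factor that starts hair cell development, differed by 2.95 ± 0.18 (SE) and Pou4f3, which maintains hair cells, by 2.99 ± 0.19 (SE). Only 4 hair cell markers exceeded Smpx, namely Xirp2, Lhx3, Insm1 and Ccer2. Of 17 prosensory markers 12 were higher and 3 lower (median 1.14), and of 14 supporting cell markers 9 and 3 (0.90). Of 12 markers of the medial Kolliker organ and spiral limbus, 8 were higher and 3 lower (1.14). Among these, Calb1 differed by 3.11 ± 0.15, Tectb by 2.90 ± 0.14 and Fgf10 by 2.73 ± 0.12 (SE). Values near that of Smpx were therefore not particular to hair cell or neuronal markers. The mesenchyme, cartilage, endothelial and erythroid lists had negative medians, the lowest -3.25 for erythroid genes.

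Skeletal muscle genes, named here because Smpx is best known from muscle, were more often lower than higher in TRAP against pre-TRAP RNA. Of 21 tested, 2 were higher, 11 were lower, and the median log2 difference was -0.98, against 27.9% higher and 31.2% lower over all genes. The 2 higher were Mylpf, a myosin light chain (0.71 ± 0.14, SE), and Chrng, the fetal subunit of the acetylcholine receptor (1.54 ± 0.26, SE). Acta1, the actin of skeletal muscle fibres, stood at 52.8 ± 18.6 CPM in TRAP het and 57.8 ± 23.0 CPM in pre-TRAP het (SD, n = 8 and n = 4), with a log2 difference of -0.28 ± 0.16 (SE, edgeR adjusted p = 0.149). Of the 5 regulators of muscle fate on the list, Myog was the most abundant in TRAP het at 0.478 ± 0.347 CPM (SD, n = 8). Myod1 had 0.0729 ± 0.0493, Pax7 0.0248 ± 0.0292 and Myf5 0.0389 ± 0.0665 CPM there (SD, n = 8), and Myf6 had no counts. Of 9 cardiac muscle genes tested, 2 were higher and 5 lower in TRAP against pre-TRAP RNA, with a median of -0.85. Those higher were Myl7 (1.80 ± 0.24, SE) and Actc1 (1.79 ± 0.17, SE). Actc1 averaged 18.9 ± 4.04 CPM in TRAP het and 4.90 ± 0.875 CPM in pre-TRAP het (SD, n = 8 and n = 4).

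Skeletal muscle genes were also compared between genotypes, beside Smpx. In TRAP none of 17 tested was called (0.0742% of all genes were), 11 had a positive log2 difference, and the median was 0.22, against -0.02 over all genes. In pre-TRAP none of 18 was called (0.00455% of all genes were), 14 had a positive difference, and the median was 0.44, against -0.03 over all genes. Myh3, an embryonic myosin, differed there by 0.92 ± 0.46, Myl1 by 0.87 ± 0.39 and Myog by 0.69 ± 0.37 (SE, edgeR adjusted p = 0.837 for each). Below 0 in pre-TRAP were Ryr1 (-0.63 ± 0.37), Tnni2 (-0.20 ± 0.24), Tnnt3 (-0.17 ± 0.23) and Neb (-0.01 ± 0.31, SE). In TRAP the difference was -0.34 ± 0.57 for Myh3, 0.37 ± 0.27 for Myl1 and 0.31 ± 0.36 for Myog (SE). The list ran there from -0.98 ± 0.82 for Casq2 to 0.70 ± 0.29 for Chrng (SE). The summed level of the list was 37.6 to 99.9 CPM in TRAP het and 60.3 to 96.4 CPM in TRAP mut. In pre-TRAP it was 55.5 to 107 CPM in het and 86.0 to 98.2 CPM in mut. The level of a list used as a covariate, here and below, was not this sum. It was the mean log2(CPM + 0.5) of its genes that passed the filter over all 24 libraries. With that skeletal muscle level (21 genes) as a covariate, the genotype difference of Smpx was 1.09 ± 0.17 (SE) in TRAP. In pre-TRAP it was 1.03 ± 0.26 (SE, edgeR adjusted p = 0.611).

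**Figure D3:**
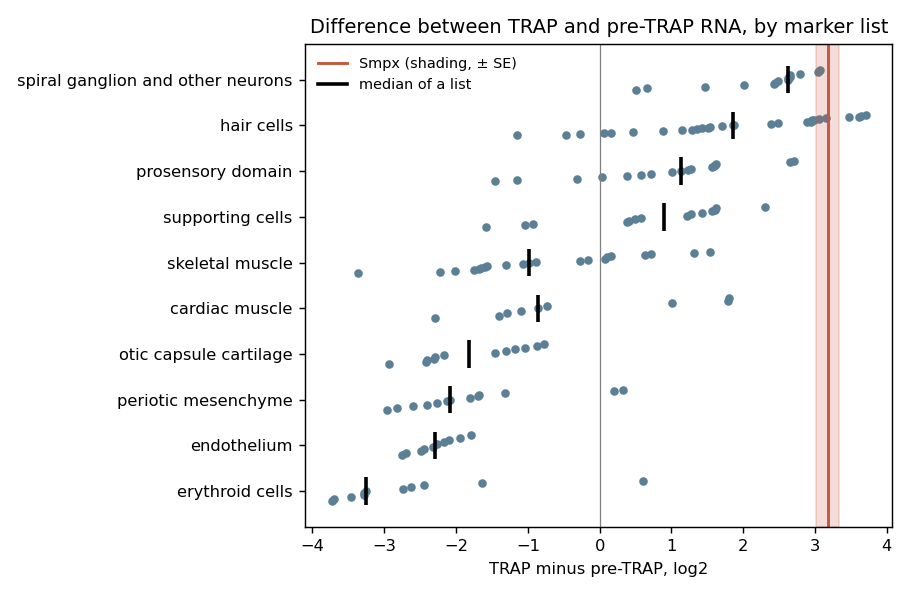
Log2 difference of TRAP minus pre-TRAP (x axis) for the genes of 10 marker lists (points), with list medians as black bars and Smpx as a red line with its SE shaded. Smpx at 3.18 lies at the upper end of the hair cell list (median 1.86) and beyond every skeletal muscle gene shown (median -0.98).

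No marker of hair cells or neurons was called between genotypes in TRAP, where 0.0742% of all genes were called, so a count of 0 in lists this short says little. Of the 28 hair cell genes tested, 22 had a positive log2 difference, and the median was 0.19, against -0.02 over all genes. Their summed level was 214 to 280.2 CPM in TRAP het and 216 to 330.3 CPM in TRAP mut. Of the 14 neuronal genes tested, 12 had a positive difference, and the median was 0.07. Positive differences in TRAP were therefore not particular to skeletal muscle genes. In pre-TRAP the medians were -0.18 for 24 hair cell genes (10 positive) and -0.02 for 14 neuronal genes (7 positive), against -0.03 over all genes. With the hair cell level as a covariate the TRAP difference of Smpx was 1.17 ± 0.18 (SE), and with the neuronal level 1.18 ± 0.16 (SE).

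The level of Smpx also differed between the experiments. It was lower in experiment 2 than in experiment 1 in TRAP RNA, by a log2 difference of -0.52 ± 0.15 (SE, edgeR adjusted p = 0.0166). This contrast called 23.0% of genes and 8.81% were lower in experiment 2, so such a difference was common. Without the genotype covariate the adjusted p was 0.156 for a difference of -0.55, and with the hair cell or muscle level as a covariate it was 0.127 (-0.43) or 0.0761 (-0.50). In pre-TRAP RNA the difference was -0.55 ± 0.24 (SE) and did not pass (edgeR adjusted p = 0.147, with 14.7% of genes called). Of the other genes higher in mut TRAP RNA, Epyc was also lower in experiment 2 (-0.77 ± 0.19, SE, edgeR adjusted p = 0.00518), as was Fgf13 (-0.34 ± 0.11, SE, edgeR adjusted p = 0.024). Calb1 was higher there (0.41 ± 0.15, SE, edgeR adjusted p = 0.0488).

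The genotype difference of Smpx was not shown to differ between the experiments. The genotype by experiment interaction in TRAP was -0.19 ± 0.31 on the log2 scale (SE, edgeR adjusted p = 0.970). No gene was called in it by edgeR, 0% of 21577, while 455 had an unadjusted p under 0.05. DESeq2 also called none.

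Ordered by mean level, the 8 combinations of RNA, genotype and experiment ran as follows. TRAP mut of experiment 1 was highest at 47.8 ± 7.48 CPM, then TRAP mut of experiment 2 at 30.1 ± 4.87, TRAP het of experiment 1 at 20.9 ± 7.88 and TRAP het of experiment 2 at 15.1 ± 2.60 (SD, n = 4 each). Pre-TRAP mut of experiment 1 had 4.32 ± 0.160 CPM, pre-TRAP mut of experiment 2 had 3.43 ± 0.933, pre-TRAP het of experiment 1 had 2.78 ± 0.80 and pre-TRAP het of experiment 2 had 1.61 ± 0.438 (SD, n = 2 each). In CPM with TMM factors, libraries of TRAP mut of experiment 2 overlapped those of TRAP het of experiment 1. The TRAP het libraries of the 2 experiments overlapped, as did pre-TRAP mut of experiment 2 and pre-TRAP het of experiment 1. No other neighbours in the order overlapped.

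The genes beside Smpx on chromosome X were compared between genotypes in the same way. Of the 12 nearest protein-coding genes, 6 on either side in the reference table, 10 passed the filter in TRAP, and their median log2 difference was -0.03, against -0.02 over all genes. None was called, in a contrast that called 0.0742% of all genes. Sms, which encodes spermine synthase, averaged 198 ± 17.9 CPM in TRAP het and 209 ± 20.3 CPM in TRAP mut (SD, n = 8 each), a difference of 0.06 ± 0.10 (SE). Klhl34 differed by -0.22 ± 0.43 in TRAP and by 0.82 ± 0.40 in pre-TRAP (SE), with 0.314 to 0.546 CPM as the range of its group means. Phex did not pass the TRAP filter, and Yy2 had no counts. In TRAP against pre-TRAP, 4 of 11 neighbours were higher, among them Sms at 1.41 ± 0.08 (SE), and 3 were lower, against 27.9% and 31.2% of all genes. No RefSeq gene overlaps Smpx in the table.

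**Figure D4:**
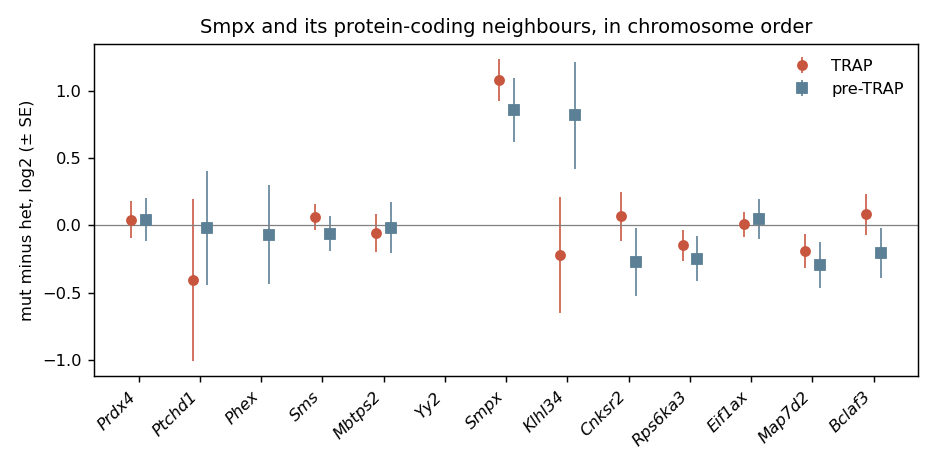
Log2 difference of mut minus het with SE bars for Smpx and its 12 protein-coding neighbours in chromosome order, in TRAP (red circles) and pre-TRAP (blue squares). Smpx stands at 1.08 and 0.86, and every TRAP value of a neighbour lies between -0.41 and 0.08; points are missing for Phex in TRAP and for Yy2, which did not pass the filter.

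Across the chromosome, 1 of 905 other X-linked genes tested was called in TRAP, which was Fgf13, near the 0.0742% of all genes called, and the median log2 difference was 0.01, against -0.02 over all genes. Sex-linked RNAs varied among the pools. Summed counts of 4 Y-linked genes ran from 0.520 to 64.2 CPM in TRAP het (median 16.3) and from 18.4 to 45.2 CPM in TRAP mut (median 26.6). Xist, the RNA that silences one X chromosome in female cells, ran from 0.102 to 2.85 CPM in TRAP het and from 1.34 to 6.60 CPM in TRAP mut. In pre-TRAP the Y-linked sum ran from 0.358 to 87.1 CPM in het and from 27.7 to 79.5 CPM in mut. Xist ran from 0 to 14.5 CPM in pre-TRAP het and from 0 to 8.51 CPM in pre-TRAP mut. The Y-linked gene Ddx3y had 1.16 and 0.191 CPM in pre-TRAP het libraries 17 and 21, and at least 17.1 CPM in pre-TRAP mut. When the level of the Y-linked genes was added as a covariate, the TRAP difference of Smpx was 1.11 ± 0.18 (SE) and the pre-TRAP difference 0.87 ± 0.28 (SE, edgeR adjusted p = 0.859).

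Smpx was set beside other genes of X-linked hearing loss. None of the 7 that could be tested was called between genotypes in TRAP (0.0742% of all genes were), and their median log2 difference was 0.08. In TRAP against pre-TRAP RNA, 1 of 8 was higher and 5 were lower, with a median of -0.53, where 27.9% of all genes were higher and 31.2% lower. The one higher was Timm8a1, which encodes a chaperone of mitochondrial protein import, at 0.40 ± 0.10 (SE). Pou3f4, a transcription factor of the periotic mesenchyme, differed by -2.13 ± 0.13 (SE), from 170 ± 37.0 CPM in pre-TRAP het to 36.8 ± 9.57 CPM in TRAP het (SD, n = 4 and n = 8). None of the 8 reached the 3.18 of Smpx.

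Costamere and membrane linker genes, which encode partners of the structure where Smpx sits in muscle, had a median log2 difference of 0.00 between genotypes in TRAP, and 0 of 20 were called (0.0742% of all genes were). In TRAP against pre-TRAP, 3 were higher and 16 lower, with a median of -0.75, where 27.9% of all genes were higher and 31.2% lower. Those higher were Cryab (a small heat shock protein, 2.86 ± 0.17, SE), Ldb3 (a protein of the muscle Z-disc, 1.02 ± 0.31) and Dmd (dystrophin, 0.35 ± 0.13). Cryab reached 495 ± 182 CPM in TRAP het against 74.5 ± 27.7 CPM in pre-TRAP het (SD, n = 8 and n = 4). Among 19 genes of Igf1, Rac1, Mef2 and Nfat signalling, the routes with which Smpx has been linked in muscle cells, none was called between genotypes in TRAP, with a median of -0.01.

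To ask whether Smpx followed any cell type within groups, its deviation from the mean of its genotype and experiment was set against that of 21 gene lists over the 16 TRAP libraries. No list passed after adjustment over the 21, by exact permutation within groups. The largest Pearson correlation was with the Igf1, Rac1, Mef2 and Nfat list, r = -0.77 (exact permutation p = 0.00444, adjusted p = 0.0932), with Spearman's rho = -0.82 (exact permutation p = 0.00238, adjusted p = 0.0500036). Without the 2 libraries farthest from the median r was -0.75. For hair cells r was -0.22 and rho -0.14 (exact permutation p = 0.419 and 0.667, adjusted p = 0.928 and 0.947), and r was 0.04 without the 2 farthest. For skeletal muscle r was -0.06 and rho -0.19 (exact permutation p = 0.886 and 0.569, adjusted p = 0.930 and 0.947), and r was -0.60 without the 2 farthest. For Xist r was 0.53 and rho 0.30 (exact permutation p = 0.209 and 0.400, adjusted p = 0.721 and 0.947), and r fell to 0.08 without the 2 farthest, so that value rested on those libraries.

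The genes whose levels were most like Smpx were ranked by Pearson r of log2(CPM + 0.5), as a description without p. Over all 24 libraries, where points share the step between TRAP and pre-TRAP RNA, the leaders were Mllt11 (r = 0.97), Synpr (0.97), Clvs1 (0.97), Snx10 (0.97), Snap25 (0.96), Trappc2 (0.96), Fgf13 (0.96) and Zc2hc1a (0.96), and 246 of 11884 genes had an r over 0.9. Synpr and Snap25 encode proteins of synaptic vesicle release. Snap25 averaged 103 ± 21.5 CPM in TRAP het and 16.6 ± 0.944 CPM in pre-TRAP het (SD, n = 8 and n = 4), a log2 difference between the RNAs of 2.65 ± 0.10 (SE).

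Over the 16 TRAP libraries alone, where points share genotype and experiment, the order changed. Epyc (r = 0.89) and Fgf13 (0.89) came first, followed by Nap1l2 (0.89), Stx12 (0.89), Trappc2 (0.88), Zc2hc1a (0.88), Dcn (0.87) and Lum (0.86). Fgf13, Nap1l2 and Trappc2 lie on chromosome X, as Smpx does. Besides Smpx, 905 of the 21577 genes tested in TRAP were placed on that chromosome. The leaders were picked by likeness, and their chromosomes were not tested. Epyc, Dcn and Lum encode small leucine-rich proteoglycans of the matrix. Dcn differed between genotypes by 0.48 ± 0.13 in TRAP (SE, edgeR adjusted p = 0.483), and Lum by 0.69 ± 0.19 (SE, edgeR adjusted p = 0.481). Epyc and Fgf13 were also called higher in the TRAP genotype contrast from which Smpx was chosen, and these r include that step. With group means subtracted, r was 0.49 for Epyc and 0.40 for Fgf13. Across the 8 pre-TRAP libraries it was 0.59 for Epyc and 0.02 for Fgf13. Over 24 libraries Epyc had an r of only 0.08, and its level was lower in TRAP than in pre-TRAP RNA by -0.39 ± 0.16 (SE).

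After the mean of each genotype and experiment was subtracted, yet other genes led. They were Commd2 (r = 0.97), Ufc1 (0.97), Lsm8 (0.97), Ramac (0.96), Atp5f1 (0.96), Btf3l4 (0.96), Eef1akmt2 (0.96) and Cript (0.96). Ufc1 is an enzyme of protein modification by ufmylation, Lsm8 binds the U6 spliceosomal RNA, Ramac serves the mRNA cap methyltransferase and Atp5f1 is a subunit of the ATP synthase. Most opposite were Prkd3 (-0.95), a protein kinase, Pum2 (-0.93), an RNA-binding repressor, Ssh1 (-0.93), a phosphatase of actin regulation, and Fam13b (-0.93). None of these 12 was called between genotypes in TRAP, where 0.0742% of all genes were called, so that count says little about them. Commd2 averaged 94.0 ± 24.4 CPM in TRAP het and 103 ± 19.1 CPM in TRAP mut (SD, n = 8 each). Of the leaders over all 24 libraries, Mllt11 (0.95) and Trappc2 (0.93) also had a high r here. The other leaders over 24 libraries ran from 0.40 (Clvs1) to 0.74 (Zc2hc1a).

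Across the 8 pre-TRAP libraries, not used for that ranking, r with Smpx was 0.77 for Commd2 and -0.70 for Prkd3, without subtraction of group means. It ran from 0.43 (Lsm8) to 0.80 (Atp5f1) over the 8 most like genes, and from -0.83 (Ssh1) to -0.58 (Fam13b) over the 4 most opposite. These r include the steps between genotypes and experiments, and the share of all genes with such values was not counted. In TRAP, 359 of 11698 genes had a centred r over 0.8 and 279 had one under -0.8. The 354 of the former with a known genomic span had a median of 10.4 kb, the 272 of the latter 64.1 kb, and all 11510 ranked genes with a span 24.2 kb. Of the within-group variance of the TRAP libraries, 35.0% lay on the first component, with which the absolute r of Smpx was 0.40. The part of these shared deviations in the level of Smpx was not tested. With the mean level of the 8 most like genes as a covariate, a setting added after the data were seen, the genotype difference of Smpx was 0.91 ± 0.08 (SE) in TRAP and 0.69 ± 0.19 (SE, edgeR adjusted p = 1.00) in pre-TRAP. Those 8 genes were picked by their r with Smpx in the TRAP libraries, which by itself makes that SE smaller. Under the same setting the difference between experiments in TRAP was -0.08 (edgeR adjusted p = 0.659).

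**Figure D5:**
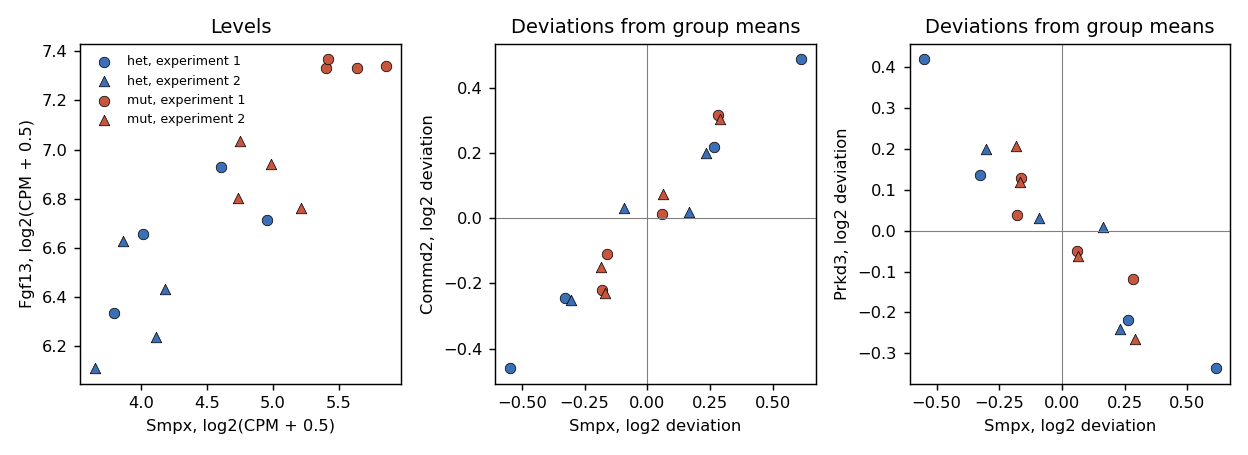
Smpx against Fgf13 as log2(CPM + 0.5) levels (left), and against Commd2 (middle) and Prkd3 (right) as deviations from the mean of each genotype and experiment, for the 16 TRAP libraries. Fgf13 rises with Smpx across groups (r = 0.89, and 0.40 with group means subtracted). Within groups Commd2 rises with Smpx (0.97) and Prkd3 falls (-0.95).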

How the data were processed

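The authors' deposited table held raw counts per Ensembl gene, whole numbers for 24 libraries and 53946 genes. Per the submitters' processing notes, STAR and DESeq2 were used with GRCm38.p5. For the counting tool, strand setting and annotation, the sources used here give nothing. Each comparison was fitted over all genes in edgeR 4.0.16 (R 4.3.3) with TMM scaling, filterByExpr at a minimum count of 10, and quasi-likelihood F tests, with calls at an adjusted p (Benjamini-Hochberg) under 0.05. Genotype fits held experiment as a covariate. Each SE of a log2 difference was its absolute value divided by the square root of its F statistic. For Smpx in the TRAP genotype contrast, the SE therefore restates the statistic of the contrast used for the choice. CPM used TMM factors (0.801 to 1.142), and log2 levels a pseudocount of 0.5. The fits were tested on simulated data. Alternatives were median-of-ratios scaling, no filter, DESeq2 1.42.0, limma 3.58.1 voom, other covariates, each experiment alone and leaving out each library. Genes named were Smpx, Fgf20, the 8 most like Smpx (mean of at least 2 CPM) by each of 3 measures, the 4 most opposite, members of 21 lists and 12 neighbours. Genes beside Smpx among the TRAP calls, and Fam184b, were named after their values were seen. Smpx and the lists were chosen with earlier results of these data known. Symbols matched 53274 identifiers. Between 46 and 1978 counts per library lay behind a Smpx value.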

Additional observations from a re-analysis of the deposited data

Results flagged for a closer look

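Of 108 sets of 4 or 8 libraries examined for 27 genes, 6 held a library far from the others by Dixon's test, and chance flags about 1 in 20. No set of Smpx was among them. In pre-TRAP het, library 21 was highest for Clvs1 at 1.67 CPM (next 0.705) and for Zc2hc1a at 49.7 CPM (next 38.7). In pre-TRAP mut, library 20 was highest for Snx10 at 23.3 CPM (next 20.3), and library 18 was highest for Prkd3 at 74.6 CPM (next 54.4) and for Ssh1 at 25.8 CPM (next 20.2). In TRAP het, library 5 was highest for Epyc at 85.7 CPM (next 49.5), and it was also the highest het library for Smpx at 30.6 CPM.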

How the results depend on the processing

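The genotype difference of Smpx in TRAP stayed positive under 13 alternatives (0.91 to 1.21) and without each library in turn (1.00 to 1.18). In pre-TRAP it stayed positive and never passed, at 0.66 to 1.11 under 13 alternatives (edgeR, limma or DESeq2 adjusted p = 0.426 to 1.00) and 0.69 to 1.04 without each library. TRAP against pre-TRAP passed throughout, at 3.12 to 3.26 without each library, 4.48 with the hair cell level and 5.45 with the neuronal level as a covariate, levels that themselves differ between these RNAs. The difference between experiments in TRAP did not pass without the genotype covariate (-0.55), with the muscle (-0.50) or hair cell level (-0.43), or with the level of the 8 most like genes (-0.078), and it was -0.61 to -0.43 without each library. In pre-TRAP it passed with the neuronal level alone (-0.71, edgeR adjusted p = 0.0231) and was -0.73 to -0.38 without each library. The interaction was -0.42 to -0.03 without each library. The cause was not tested. Genes called for genotype in TRAP, Smpx included, numbered 16, against 27 without a filter, 58 with DESeq2, 31 with limma voom, 4 without the experiment covariate and 6 to 16 without each library. In pre-TRAP the count was 1, against 2 with DESeq2, 0 without the covariate and 1 to 2 without each library. Genes called between experiments in pre-TRAP numbered 3231, against 1995 without library 20 and 4925 without library 19. The interaction called 1 gene without a filter. No value changed direction, and no likeness moved by 0.1 or more. No paired analysis was possible because each library has a number of its own and the labels tie none of the TRAP pools to any pre-TRAP pool. Counts of 46 to 215 limit the precision of Smpx in pre-TRAP RNA.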
